A study of Mus musculus with 21 samples.

Results

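Macrophages of the R2 population from the hearts of naive mice were compared with monocytes from the spleens of naive mice by sequencing RNA from sorted cells in bulk. The comparison uses 6 of the study's 21 libraries, 3 of R2 and 3 of monocytes, taken by their labels. R2 cells were sorted from C57BL/6 hearts as Ccr2-negative and MHC-II-high. The monocytes were sorted from C57BL/6 spleens as Ccr2-positive, and their MHC-II label reads NA. Within a group, each library was taken as its own pool of untreated animals, so the p-values below measure the spread between such pools. How many mice went into a pool, their age and their sex are not stated in the labels. The study also holds 3 libraries each of naive cardiac R1 (Ccr2-negative, MHC-II-low) and naive cardiac R3 (Ccr2-positive, MHC-II-high), which are set beside R2 where they help. It further holds 3 each of R1, R2 and R3 from mice given CAWS, a water-soluble extract of Candida albicans. The CAWS libraries entered only the filter on low counts, the scaling between libraries and the estimate of the spread. Organ, cell type and sort differ together between R2 and the monocytes and cannot be told apart. In bulk RNA, fewer cells of a type and less RNA per cell cannot be told apart either.

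Resident macrophages live in the heart between the muscle cells, where they take up dying cells and debris, present antigen and make complement and growth factors. Classical monocytes leave the bone marrow with the help of the chemokine receptor Ccr2, circulate or wait in the spleen, and can become macrophages once they enter a tissue. Nonclassical monocytes patrol vessel walls and depend on the nuclear receptor Nr4a1.

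The R2 libraries held 18013289 to 23006155 counts and the monocyte libraries 16118186 to 18708547, within a range of 12800136 to 23006155 over the whole series. In a principal component analysis of the 4 naive groups the first component carried 73.6% of the variance. R2 lay between -53.0 and -49.7 on it, naive R1 between -53.2 and -51.1, naive R3 between -27.7 and -18.5, and the monocytes between 121.9 and 130.1. Monocyte replicate 2 stood apart from its group. Relative to the other monocyte libraries, its median log2 ratio was 0.56 for the quintile of genes with the shortest transcripts and -0.51 for the quintile with the longest, whereas no R2 library moved by more than 0.042. Over the same quintiles, the median log2 fold change of R2 over monocytes was -0.53 for the shortest genes and 0.39 for the longest, and -0.29 and 0.24 without that library. The ribosomal protein genes, which are short, differed between the monocyte libraries as well: their summed level was 7638, 7641 and 7485 CPM (counts scaled to library size) in R2, against 14540, 29570 and 13080 CPM in the monocytes. Of 81 tested, 3 were higher and 71 lower, with a median log2 fold change of -1.38, and -0.79 without monocyte replicate 2. Counts below are therefore given with and without this library where they rest on it.

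Of 13275 genes with enough counts, 8440 (63.6%) differed between R2 and monocytes at an adjusted p under 0.05 (edgeR's quasi-likelihood test, Benjamini-Hochberg adjustment). R2 was higher for 4390 (33.1%) and lower for 4050 (30.5%). With a change of at least 2-fold also required, 4895 genes (36.9%) remained, 2842 higher (21.4%) and 2053 lower (15.5%). Without monocyte replicate 2 the test called 8041 genes, 4167 higher and 3874 lower, and 4437 passed the 2-fold limit, 2694 higher and 1743 lower. Differences of 16-fold or more were found for 816 genes higher and 313 lower. For 8753 genes (65.9%) the R2 and monocyte libraries did not overlap. The median log2 fold change over all tested genes was 0.08. With this many genes called, the count for each gene list below is read against these shares.

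**Figure D1:**
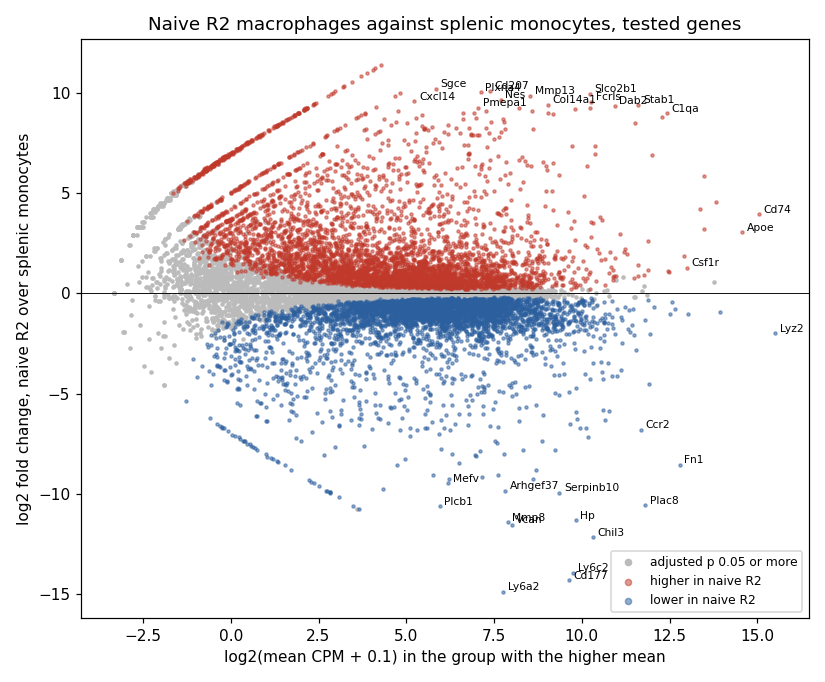
Each point is 1 of the 13275 tested genes, with the log2 of its mean CPM plus 0.1 in the higher group on the x axis and its log2 fold change of R2 over monocytes on the y axis. Points far above 0 are genes such as Stab1 and Mmp13 that were nearly absent from the monocytes, and points far below 0 are genes such as Ly6c2 and Chil3 that were nearly absent from R2.

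The genes of the sort followed the labels. Gene positions are given on GRCm38.p6. Ccr2 (gene ID 12772, chromosome 9, 124101918 to 124109140), the receptor for the chemokine Ccl2, measured 29, 20.2 and 38.7 CPM in R2, against 2997, 3607 and 3183 CPM in the monocytes. The groups stood far apart, but R2 was not at 0. The MHC class II beta chain H2-Ab1 (gene ID 14961, chromosome 17, 34263227 to 34269418) measured 10630, 11580 and 9627 CPM in R2, against 593, 837 and 284 CPM in the monocytes. Since the sort selected on both proteins, these values describe the gate and are not a result. Adgre1 and Csf1r, which the sort labels do not name, were present on both sides. Adgre1 (gene ID 13733, chromosome 17, 57358581 to 57483529), which encodes the F4/80 antigen, measured 2528, 2391 and 2209 CPM in R2, against 557, 641 and 538 CPM in the monocytes (log2 fold change 2.04 ± 0.10, adjusted p = 4.33e-14). The receptor for colony-stimulating factor 1, Csf1r (gene ID 12978, chromosome 18, 61105572 to 61131139), measured 8508, 7963 and 7923 CPM in R2, against 3614, 2841 and 3680 CPM in the monocytes (log2 fold change 1.27 ± 0.09, adjusted p = 8.92e-11). Ly6c2 (gene ID 100041546, chromosome 15, 75108161 to 75112066), part of the Ly6C antigen of classical monocytes, measured 0, 0.114 and 0.0441 CPM in R2, against 821, 1027 and 741 CPM in the monocytes, with 3 counts in the R2 libraries in all. The ratio of monocyte to R2 levels was 17800, with a 95% interval of 6080 to 86200 from counting error only. Its fitted log2 fold change was -13.93 ± 0.36, and -14.86 without R2 replicate 2. Ly6 genes are near-identical copies of each other, so how reads were shared among them is uncertain.

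Genes that mark tissue macrophages in general were mostly higher in R2. Of 30 tested, 22 were higher, 2 lower and 6 passed in neither direction, with a median log2 fold change of 1.42. Mertk, a receptor for dying cells, measured 108, 117 and 108 CPM in R2, against 1.16, 0.682 and 0.729 CPM in the monocytes (log2 fold change 7.01 ± 0.22, adjusted p = 1.6e-17). Abca1, which exports cholesterol, measured 523, 462 and 519.8 CPM in R2, against 20.1, 9.35 and 13.96 CPM in the monocytes (log2 fold change 5.11 ± 0.27, adjusted p = 3.31e-12). Every R2 library was far above every monocyte library for both. Smaller differences were found for the high-affinity Fc receptor Fcgr1 (log2 fold change 1.29 ± 0.11), the endotoxin receptor Tlr4 (2.66 ± 0.15) and the stress protein Sesn1 (3.55 ± 0.14). The lysosomal protein Cd68, often used to stain macrophages, measured 568, 606 and 570.1 CPM in R2, against 544, 571 and 497 CPM in the monocytes, and the groups overlapped (adjusted p = 0.318).

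Markers of long-lived cardiac macrophages set R2 apart more strongly. Of 20 tested, 19 were higher and none lower, with a median log2 fold change of 7.18. The haemoglobin scavenger receptor Cd163 measured 1287, 1269 and 1442 CPM in R2, against 13.1, 12.7 and 6.95 CPM in the monocytes (log2 fold change 6.95 ± 0.25, adjusted p = 3e-15). Mrc1, the mannose receptor, measured 4108, 3954 and 4232 CPM in R2, against 46.3, 42.6 and 14.5 CPM in the monocytes (log2 fold change 6.90 ± 0.30, adjusted p = 2.52e-13). Igf1, insulin-like growth factor 1, measured 289.9, 282 and 377 CPM in R2, against 3.15, 3.41 and 2.19 CPM in the monocytes (log2 fold change 6.78 ± 0.28, adjusted p = 2.23e-14). None of these overlapped, and the monocytes held at most 46.3 CPM of any of them. Lyve1, a hyaluronan receptor, measured 345, 314 and 481 CPM in R2, against 0.579, 1.501 and 0.112 CPM in the monocytes (log2 fold change 9.09 ± 0.54, adjusted p = 1.16e-10). Its log2 fold change was 10.15 without monocyte replicate 2 and 8.49 without monocyte replicate 3. Folr2, a folate receptor, measured 490.3, 465 and 627 CPM in R2, against 1.29, 1.84 and 0.112 CPM in the monocytes (log2 fold change 8.997 ± 0.53, adjusted p = 1.43e-10), and its log2 fold change was 9.63 and 8.36 without the same libraries. Timd4, a receptor for phosphatidylserine on dying cells, measured 92.8, 89.2 and 117 CPM in R2, against 0.193, 1.43 and 0.224 CPM in the monocytes (log2 fold change 7.40 ± 0.46, adjusted p = 5.04e-11), and 8.85 without monocyte replicate 2. The member that did not pass was the coagulation factor gene F13a1, at 2372, 2296 and 2978 CPM in R2, against 2977, 2807 and 2783 CPM in the monocytes (adjusted p = 0.475). It also stands among the classical monocyte markers, and both cell types held it at 2296 CPM or more. Naive R1 averaged 1439 ± 134 CPM of Lyve1 and 1329 ± 131 CPM of Folr2 (SD, n = 3), above R2 (log2 fold changes of R2 over R1 -1.92 and -1.33, adjusted p = 0.000665 and 0.014).

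**Figure D2:**
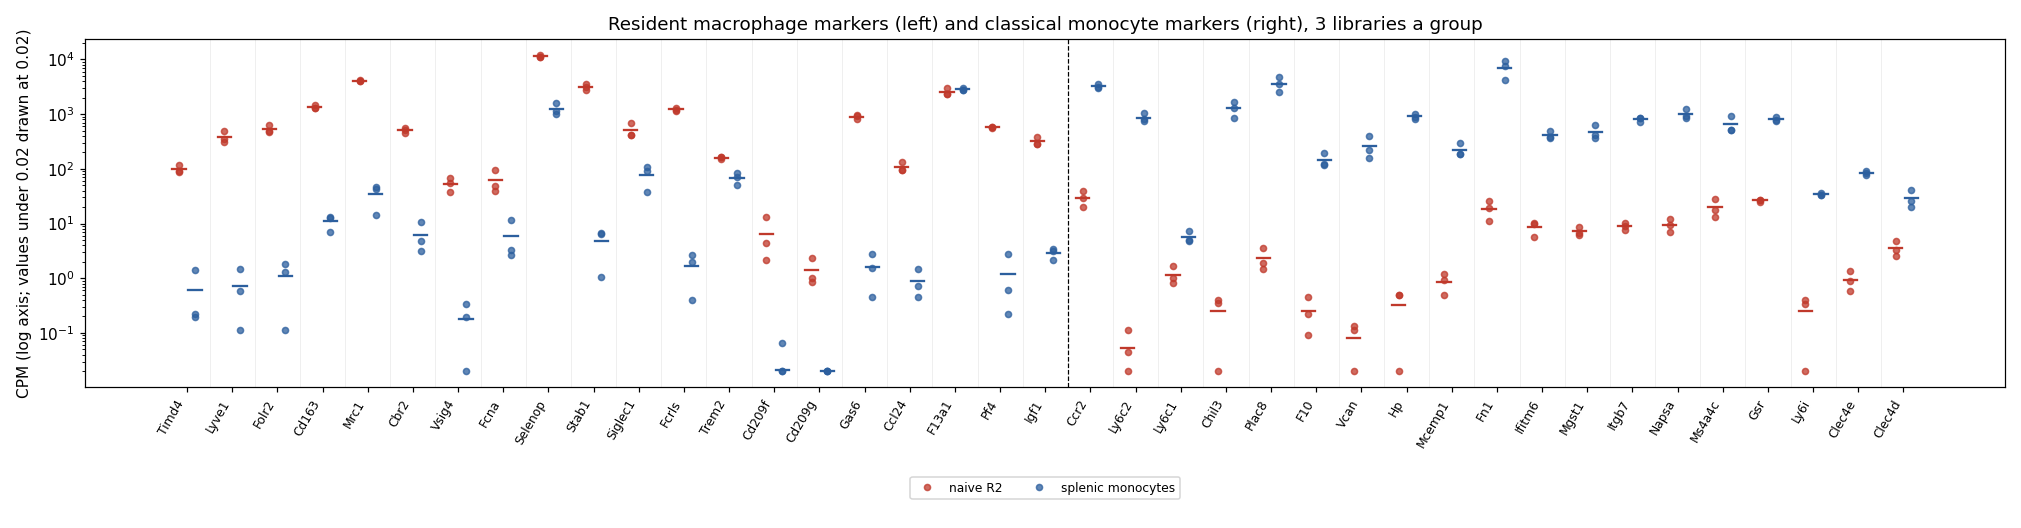
CPM on a log axis in each R2 library and each monocyte library for markers of resident cardiac macrophages on the left and of classical monocytes on the right. F13a1 is the marker whose libraries overlap.

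The 12 largest differences upward, among genes with at least 32 CPM in R2 and no overlap, were of several kinds. Sgce (gene ID 20392, chromosome 6, 4674350 to 4747204), the epsilon member of the sarcoglycans, measured 56.3, 61.4 and 54.7 CPM in R2, against 0.129, 0 and 0 CPM in the monocytes, with 2 counts in the monocytes in all. That is an R2 to monocyte ratio of 1370 (95% counting interval 380 to 11300). Without monocyte replicate 1 or monocyte replicate 3 its fitted log2 fold change was 12.94 or 9.58. Cd207 (gene ID 246278, chromosome 6, 83671207 to 83677857), the lectin langerin, measured 216, 147 and 137 CPM in R2, against 0.322, 0 and 0.112 CPM in the monocytes (log2 fold change 10.09 ± 0.66, adjusted p = 3.07e-11). The semaphorin receptor Plxna4 (gene ID 243743, chromosome 6, 32144543 to 32588192) measured 155, 128 and 133 CPM in R2, against 0.257, 0.0683 and 0.0561 CPM in the monocytes (log2 fold change 10.03 ± 0.35, adjusted p = 2.48e-18). All 3 were under 1 CPM in each monocyte library. The anion transporter Slco2b1 (gene ID 101488, chromosome 7, 99657804 to 99711340) measured 1199, 1219 and 1171 CPM in R2, against 1.99, 1.57 and 0.224 CPM in the monocytes (log2 fold change 9.94 ± 0.24, adjusted p = 2.17e-19). Mmp13 (gene ID 17386, chromosome 9, 7272514 to 7283333), a collagenase, measured 392.2, 365 and 352 CPM in R2, against 0.514, 0.614 and 0.112 CPM in the monocytes (log2 fold change 9.84 ± 0.21, adjusted p = 2.86e-20). Nes (gene ID 18008, chromosome 3, 87971093 to 87980451), the intermediate filament protein nestin, measured 219.7, 193 and 209 CPM in R2, against 0.322, 0.273 and 0.168 CPM in the monocytes (log2 fold change 9.65 ± 0.37, adjusted p = 6.88e-16). Their lack of overlap follows from the selection. The chemokine Cxcl14 (gene ID 57266, chromosome 13, 56288643 to 56296811) measured 45.5, 33.5 and 33.3 CPM in R2, against 0.0643, 0.0683 and 0 CPM in the monocytes. That is an R2 to monocyte ratio of 906 (95% counting interval 250 to 7480). Fcrls (gene ID 80891, chromosome 3, 87250736 to 87263765), a member of the Fc receptor-like family, measured 1317, 1158 and 1202 CPM in R2, against 2.70, 1.98 and 0.392 CPM in the monocytes (log2 fold change 9.54 ± 0.26, adjusted p = 2.48e-18). The collagen gene Col14a1 (gene ID 12818, chromosome 15, 55307644 to 55520803) measured 577, 508 and 494 CPM in R2, against 1.54, 0.546 and 0.280 CPM in the monocytes (log2 fold change 9.40 ± 0.30, adjusted p = 8.61e-17). Values in the monocytes stayed under 3 CPM for all of these. The scavenger receptor Stab1 (gene ID 192187, chromosome 14, 31139017 to 31168651) measured 3489, 2797 and 3105 CPM in R2, against 6.69, 6.55 and 1.06 CPM in the monocytes (log2 fold change 9.40 ± 0.37, adjusted p = 1.11e-13). Dab2 (gene ID 13132, chromosome 15, 6299788 to 6440715), an adaptor of endocytosis, measured 2052, 1822 and 2003 CPM in R2, against 4.24, 3.75 and 1.18 CPM in the monocytes (log2 fold change 9.36 ± 0.23, adjusted p = 4.98e-19). Pmepa1 (gene ID 65112, chromosome 2, 173224458 to 173276731), a membrane protein induced by transforming growth factor beta, measured 134, 131 and 131 CPM in R2, against 0.386, 0.0683 and 0.168 CPM in the monocytes (log2 fold change 9.26 ± 0.22, adjusted p = 2.71e-20). Leaving out 1 library moved some of these folds by over 1.5 times: the log2 fold change was for Cd207 11.22 without monocyte replicate 1, for Plxna4 10.95 without monocyte replicate 1, for Slco2b1 9.35 without monocyte replicate 3, for Cxcl14 8.96 without monocyte replicate 3, for Col14a1 10.31 without monocyte replicate 1 and for Pmepa1 9.96 without monocyte replicate 1.

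Several of these genes also varied among the cardiac populations, and others did not pass there. Cd207 and Plxna4 passed neither against naive R1 (adjusted p = 0.27 and 0.33) nor against naive R3 (0.85 and 0.19). Sgce, Slco2b1, Fcrls and Dab2 did not pass against R1 (adjusted p = 0.60, 0.44, 0.15 and 0.051) and were higher in R2 than in R3. R2 and naive R1 differed for 946 genes (7.13%) and R2 and naive R3 for 1646 (12.4%), and these comparisons share the R2 libraries with the one against monocytes. They were made without pairing, and whether same-numbered libraries of R1, R2 and R3 share animals was not tested. Mmp13 averaged 369.8 ± 20.4 CPM in R2, 121 ± 17.8 CPM in R1, 165 ± 2.91 CPM in R3 and 0.414 ± 0.266 CPM in monocytes (SD, n = 3 each). R2 was above R1 (log2 fold change 1.61, adjusted p = 4.57e-09) and above R3 (1.17, adjusted p = 2.46e-07). Cxcl14 averaged 37.5 ± 6.96 CPM in R2, 13.8 ± 2.79 CPM in R1 and 28.5 ± 5.05 CPM in R3, with R2 above R1 (1.43, adjusted p = 1.82e-05) and an adjusted p of 0.145 against R3. The adhesion molecule Cadm1, which is outside the 12 largest, averaged 218 ± 8.58 CPM in R2, 53.3 ± 1.11 CPM in R1 and 174 ± 16.6 CPM in R3. Its level in R2 was above R1 (2.03, adjusted p = 9.62e-10). Stab1 averaged 3130 ± 346 CPM in R2, 5259 ± 257 CPM in R1 and 1560 ± 434 CPM in R3, with R2 above R3 (1.005, adjusted p = 0.00954) and an adjusted p of 0.0715 against R1.

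Markers of classical monocytes were lower in R2 throughout. Of 21 tested, none was higher, 20 were lower and 1, F13a1, did not pass, with a median log2 fold change of -6.79. Ccr2, on which the cells were sorted, is 1 of the 20 and describes the gate, and the median is its own value. Plac8, abundant in classical monocytes, measured 3.57, 1.48 and 1.94 CPM in R2, against 2484, 4743 and 3486 CPM in the monocytes (log2 fold change -10.55 ± 0.98, adjusted p = 1.54e-07). The chitinase-like protein gene Chil3 measured 0.407, 0 and 0.352 CPM in R2, against 849, 1638 and 1315 CPM in the monocytes (log2 fold change -12.15 ± 0.53, adjusted p = 3.08e-13). Both were under 4 CPM in every R2 library. Fn1, which encodes fibronectin, measured 25.8, 11.2 and 19.3 CPM in R2, against 9432, 4133 and 7582 CPM in the monocytes (log2 fold change -8.54 ± 0.51, adjusted p = 2.6e-10). The acute-phase gene Hp, haptoglobin, measured 0.497, 0 and 0.485 CPM in R2, against 805, 1012 and 903 CPM in the monocytes (log2 fold change -11.30 ± 0.62, adjusted p = 3.88e-11). The lectin Clec4e measured 0.903, 1.36 and 0.573 CPM in R2, against 76.5, 92.5 and 84.1 CPM in the monocytes (log2 fold change -6.51 ± 0.28, adjusted p = 6.48e-15). In R3, which shares the Ccr2 gate with the monocytes, Fn1 averaged 725 ± 289 CPM, Plac8 32.8 ± 12.4 CPM and Chil3 3.11 ± 0.689 CPM (SD, n = 3).

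The 12 largest differences downward, among genes with at least 32 CPM in the monocytes and no overlap, included Ly6c2, Chil3, Hp and Plac8. Ly6a2 (gene ID 546643, chromosome 15, 75131292 to 75135128), a Ly6 family member with near-identical copies, had no count in R2 and measured 181, 232 and 239 CPM in the monocytes, at least 4537-fold lower in R2, taking 3 counts over the R2 libraries as the floor. Cd177 (gene ID 68891, chromosome 7, 24743983 to 24760334), a surface glycoprotein best known from neutrophils, measured 0, 0 and 0.0881 CPM in R2, against 913, 799 and 663 CPM in the monocytes. That is a monocyte to R2 ratio of 24500 (95% counting interval 6790 to 202000). Mmp8 (gene ID 17394, chromosome 9, 7558429 to 7568486), the neutrophil collagenase, measured 0, 0 and 0.220 CPM in R2, against 230.2, 255 and 228 CPM in the monocytes (log2 fold change -11.41 ± 0.43, adjusted p = 2.44e-18). These 3 genes were at or near 0 in each R2 library. Vcan (gene ID 13003, chromosome 13, 89655309 to 89743027), the matrix proteoglycan versican, measured 0, 0.114 and 0.132 CPM in R2, against 219, 159 and 391 CPM in the monocytes (log2 fold change -11.52 ± 0.62, adjusted p = 3.61e-13). The phospholipase gene Plcb1 (gene ID 18795, chromosome 2, 134786164 to 135475258) measured 0.0452, 0.0569 and 0 CPM in R2, against 68.7, 35.1 and 81.9 CPM in the monocytes. That is a monocyte to R2 ratio of 1980 (95% counting interval 547 to 16300). Serpinb10 (gene ID 241197, chromosome 1, 107528994 to 107560742), an inhibitor of serine proteases, measured 0.452, 1.14 and 0.485 CPM in R2, against 594, 860.3 and 522 CPM in the monocytes (log2 fold change -9.95 ± 0.65, adjusted p = 8.32e-10). Arhgef37 (gene ID 328967, chromosome 18, 61491657 to 61536928), a predicted exchange factor for small GTPases, measured 0.0903, 0.171 and 0.441 CPM in R2, against 257, 157 and 260 CPM in the monocytes (log2 fold change -9.83 ± 0.43, adjusted p = 1.19e-14). Mefv (gene ID 54483, chromosome 16, 3706974 to 3718211), which encodes the inflammasome sensor pyrin, measured 0.0903, 0.0569 and 0.132 CPM in R2, against 78.1, 49.4 and 92.1 CPM in the monocytes (log2 fold change -9.47 ± 0.45, adjusted p = 7.64e-16). Non-overlap of the R2 and monocyte libraries was a condition of this selection. Leaving out 1 library moved some of these folds by over 1.5 times: the log2 fold change was for Cd177 -16.70 without R2 replicate 3, for Mmp8 -10.82 without R2 replicate 1 and -14.96 without R2 replicate 3, for Vcan -10.93 without R2 replicate 1 and -12.11 without R2 replicate 3 and for Arhgef37 -10.72 without R2 replicate 3.

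Markers of nonclassical monocytes were also held by the splenic cells. Of 18 tested, 3 were higher in R2, 12 lower and 3 passed in neither direction, with a median log2 fold change of -2.09. Nr4a1, which is also on the list of immediate early genes below, measured 29.7, 15.8 and 43.8 CPM in R2, against 2825, 892 and 1584 CPM in the monocytes (log2 fold change -5.88 ± 0.59, adjusted p = 3.32e-07). Ace, angiotensin-converting enzyme, measured 14.5, 12 and 5.68 CPM in R2, against 1052, 662 and 1606 CPM in the monocytes (log2 fold change -6.70 ± 0.70, adjusted p = 4.99e-07). Itgal, the alpha chain of the integrin LFA-1, measured 139, 114 and 100.8 CPM in R2, against 2001, 1369 and 2785 CPM in the monocytes (log2 fold change -4.12 ± 0.38, adjusted p = 6.99e-08). Monocyte replicate 2 was the lowest monocyte library for all 3, yet lay well above R2. The lectin-like receptor Treml4 had a log2 fold change of -5.78 ± 0.55. Of the 3 members higher in R2, Cx3cr1 and Cd36 are shared with macrophages. The fractalkine receptor Cx3cr1 measured 2028, 1976 and 1841 CPM in R2, against 1093, 914 and 1195 CPM in the monocytes (log2 fold change 0.87 ± 0.12, adjusted p = 2.26e-06). The scavenger receptor Cd36 measured 1013, 1016 and 1157 CPM in R2, against 36.9, 37.4 and 37.5 CPM in the monocytes (log2 fold change 4.83 ± 0.15, adjusted p = 1e-17). The remaining member, Fabp4, had a log2 fold change of 1.16 (adjusted p = 0.00535).

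MHC class II molecules carry peptides from engulfed proteins to CD4+ T cells; the chains are loaded in lysosome-like vesicles with help from the invariant chain Cd74 and the DM molecules, and Ciita is the master regulator of their genes. The sort selected R2 on surface MHC-II, so the chain genes describe the gate. H2-Aa, an alpha chain, measured 14740, 15660 and 13430 CPM in R2, against 370.2, 1177 and 309 CPM in the monocytes, and H2-Eb1, a beta chain, measured 11270, 12560 and 10490 CPM in R2, against 121, 372 and 100.7 CPM in the monocytes. In both, monocyte replicate 2 was the highest monocyte library. Genes of the pathway that were not stained followed. Cd74 measured 34070, 36170 and 31510 CPM in R2, against 2033, 3011 and 1626 CPM in the monocytes (log2 fold change 3.93 ± 0.25, adjusted p = 8.76e-11). Ciita measured 197, 266 and 216 CPM in R2, against 50.4, 52.9 and 77.4 CPM in the monocytes (log2 fold change 1.91 ± 0.18, adjusted p = 5.03e-09). H2-DMa measured 870.4, 955 and 791 CPM in R2, against 367, 574 and 292 CPM in the monocytes (log2 fold change 1.09 ± 0.20, adjusted p = 8.57e-05), and H2-DMb1 had a log2 fold change of 1.62 ± 0.22. H2-Ob, a chain of the DO modulator, measured 35.8, 37.2 and 36.6 CPM in R2, against 3.09, 5.25 and 3.59 CPM in the monocytes (log2 fold change 3.21 ± 0.27, adjusted p = 1.08e-09). Of the 12 genes tested, the sorted chains among them, 9 were higher, 1 lower and 2 passed in neither direction, with a median log2 fold change of 1.91. The member lower in R2 was Ifi30, a thiol reductase that opens antigens in lysosomes, at 239, 234 and 227 CPM in R2, against 633, 737 and 695 CPM in the monocytes (log2 fold change -1.56 ± 0.10, adjusted p = 1.1e-11). Among the cardiac populations the order followed the MHC-II gate. Cd74 averaged 33920 ± 2334 CPM in R2, 2597 ± 624 CPM in R1, 40570 ± 3578 CPM in R3 and 2223 ± 712 CPM in the monocytes (SD, n = 3 each). Ciita averaged 226 ± 35.7 CPM in R2, 26.2 ± 6.02 CPM in R1, 337 ± 36.6 CPM in R3 and 60.2 ± 14.9 CPM in the monocytes.

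Class II promoters share a short element, the Y box, which contains CCAAT on its reverse strand and is bound by the factor NF-Y. The core letters TGATTGG were searched on both strands in the 300 bases from 250 before to 50 after each gene's start (RefSeq, GRCm38.p6). Of the 12 class II genes 9 have a promoter in the table, and 6 of those 9 hold the letters, against 7.82% of all 32851 promoters and 9.86% of those of tested genes. The 4 below are the ones whose genes were described above, with the core in capitals, to show its spacing from the start: 50 bases before it in H2-Aa, 61 in H2-Eb1, 63 in H2-DMb1 and 59 in H2-Ob. A match describes the letters and shows no binding in these cells. H2-Aa lies on the minus strand at chr17:34287774-34288073, and the others on the plus strand, H2-Eb1 at chr17:34305617-34305916, H2-DMb1 at chr17:34152941-34153240 and H2-Ob at chr17:34238655-34238954.
H2-Aa: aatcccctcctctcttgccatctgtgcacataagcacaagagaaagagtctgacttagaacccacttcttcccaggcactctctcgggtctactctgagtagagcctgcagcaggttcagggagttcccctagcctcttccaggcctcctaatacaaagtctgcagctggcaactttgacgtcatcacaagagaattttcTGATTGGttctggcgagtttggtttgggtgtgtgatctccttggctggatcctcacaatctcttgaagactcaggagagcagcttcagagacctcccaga
H2-Eb1: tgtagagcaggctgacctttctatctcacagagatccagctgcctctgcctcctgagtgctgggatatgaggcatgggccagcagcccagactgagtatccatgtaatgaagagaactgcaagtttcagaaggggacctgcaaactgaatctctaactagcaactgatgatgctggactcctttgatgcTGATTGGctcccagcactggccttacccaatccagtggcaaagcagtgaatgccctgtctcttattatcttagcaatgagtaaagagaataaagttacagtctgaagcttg
H2-DMb1: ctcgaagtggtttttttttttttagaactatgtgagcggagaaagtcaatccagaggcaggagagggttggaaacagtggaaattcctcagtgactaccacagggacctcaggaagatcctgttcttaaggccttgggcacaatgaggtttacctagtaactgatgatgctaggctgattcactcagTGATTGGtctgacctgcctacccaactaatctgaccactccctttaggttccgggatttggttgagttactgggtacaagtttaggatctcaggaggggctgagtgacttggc
H2-Ob: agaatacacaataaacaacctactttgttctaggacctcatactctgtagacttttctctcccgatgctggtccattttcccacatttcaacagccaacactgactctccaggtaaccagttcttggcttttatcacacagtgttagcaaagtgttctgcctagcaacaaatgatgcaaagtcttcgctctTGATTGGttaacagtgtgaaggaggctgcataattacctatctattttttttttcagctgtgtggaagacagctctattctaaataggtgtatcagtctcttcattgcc

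**Figure D3:**
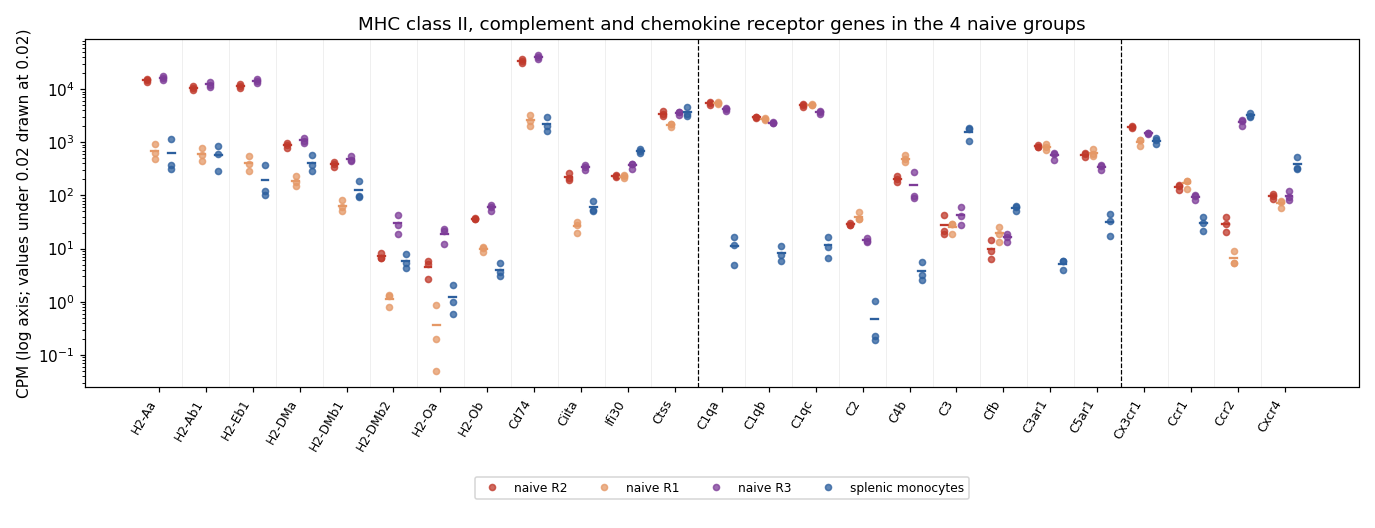
CPM on a log axis in the 3 libraries each of R2, R1, R3 and monocytes for genes of MHC class II presentation, complement and chemokine receptors. The class II genes H2-Aa, H2-Ab1, H2-Eb1, Cd74 and Ciita separate R2 and R3 from R1 and the monocytes. Among the other class II genes, Ifi30 is lower in R2 than in the monocytes, and H2-DMb2 and Ctss did not pass between these groups. The C1q genes are far lower in the monocytes than in the 3 cardiac populations. Among these, C1qc averages 4992 CPM in R2, 5045 CPM in R1 and 3658 CPM in R3. R2 is above R3 for C1qc (log2 fold change 0.45, adjusted p = 0.042), and C1qa did not pass there (adjusted p = 0.159).

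MHC class I genes, which serve peptides from inside the cell to CD8+ T cells, mostly differed by less than 2-fold. Of 18 tested, 5 were higher, 8 lower and 5 passed in neither direction, with a median log2 fold change of -0.19. At 2-fold or more, 0 were higher and 3 lower. Without monocyte replicate 2, 5 were higher and 10 lower. The light chain gene B2m measured 3279, 3042 and 2758 CPM in R2, against 3736, 4190 and 3513 CPM in the monocytes (log2 fold change -0.33 ± 0.09, adjusted p = 0.00414), a difference that did not pass when the 6 libraries were fitted alone (adjusted p = 0.0747). The immunoproteasome subunit genes Psmb8, Psmb9 and Psmb10 were lower in R2, with log2 fold changes of -0.94 ± 0.13, -1.05 ± 0.14 and -1.15 ± 0.14. The chaperone gene Pdia3 was higher (0.62 ± 0.10). Heavy chain genes are near-identical copies and their counts are uncertain.

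Complement tags cells and debris for uptake. Of 22 tested genes of the system, 15 were higher in R2, 3 lower and 4 passed in neither direction, with a median log2 fold change of 3.35. The 3 chains of C1q, which start the classical pathway, were among the most abundant transcripts of R2. C1qa (gene ID 12259, chromosome 4, 136895916 to 136898844) measured 5771, 5529 and 5124 CPM in R2, against 11.8, 16.9 and 4.82 CPM in the monocytes (log2 fold change 8.96 ± 0.26, adjusted p = 5.63e-17). C1qb measured 3024, 2951 and 2805 CPM in R2, against 7.71, 11.1 and 5.94 CPM in the monocytes (log2 fold change 8.48 ± 0.16, adjusted p = 5.72e-21). C1qc measured 5277, 5079 and 4620 CPM in R2, against 10.9, 16.8 and 6.67 CPM in the monocytes (log2 fold change 8.79 ± 0.21, adjusted p = 1.71e-19). Each chain was at 2805 CPM or more in R2 and under 17 CPM in the monocytes. C4b, the next component of that pathway, measured 199.7, 178 and 235 CPM in R2, against 3.21, 2.52 and 5.72 CPM in the monocytes (log2 fold change 5.71 ± 0.47, adjusted p = 1.14e-08). C3, on which all pathways converge, went the other way and measured 21.9, 18.8 and 42.5 CPM in R2, against 1758, 1079 and 1831 CPM in the monocytes (log2 fold change -5.80 ± 0.36, adjusted p = 1.45e-10). Factor B, encoded by Cfb and needed for the alternative pathway, measured 8.90, 6.31 and 14.4 CPM in R2, against 51.2, 64.4 and 59.7 CPM in the monocytes (log2 fold change -2.54 ± 0.31, adjusted p = 7.27e-07). The transcripts for C3 and factor B were thus lower in R2 and those for C1q and C4 higher. Receptors for the small fragments were higher in R2. C3ar1 measured 832, 899 and 813 CPM in R2, against 5.92, 5.73 and 3.98 CPM in the monocytes (log2 fold change 7.36 ± 0.17, adjusted p = 1.63e-19). C5ar1 measured 596, 629 and 523 CPM in R2, against 33.4, 17.5 and 45.5 CPM in the monocytes (log2 fold change 4.17 ± 0.21, adjusted p = 4.15e-13). The alpha chain of complement receptor 3, Itgam, was the third gene lower in R2, at 593, 538 and 551 CPM in R2, against 1520, 889 and 1428 CPM in the monocytes (log2 fold change -1.19 ± 0.14, adjusted p = 9.99e-08).

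Receptors and bridging proteins for dying cells were more often higher than lower in R2. Of 19 tested, 12 were higher, 5 lower and 2 passed in neither direction, with a median log2 fold change of 0.93. Besides Mertk, the related receptor Axl measured 1677, 1556 and 1355 CPM in R2, against 115, 91.4 and 151 CPM in the monocytes (log2 fold change 3.68 ± 0.15, adjusted p = 3e-15). Their ligand Gas6, which binds phosphatidylserine, measured 807, 909 and 979.7 CPM in R2, against 1.54, 2.80 and 0.448 CPM in the monocytes (log2 fold change 9.19 ± 0.31, adjusted p = 8.53e-16), and its log2 fold change was 9.87 without monocyte replicate 2. A second ligand, Pros1, was present on both sides, at 330, 337 and 336 CPM in R2, against 100.2, 110.1 and 116 CPM in the monocytes (log2 fold change 1.62 ± 0.09, adjusted p = 8.58e-13). The integrin chain Itgb5, which takes up cells bridged by Mfge8, measured 952, 936 and 821 CPM in R2, against 135, 103 and 192 CPM in the monocytes (log2 fold change 2.65 ± 0.15, adjusted p = 1.15e-12), whereas the related chain Itgb3 measured 1.18, 1.48 and 1.10 CPM in R2, against 51.6, 39.2 and 46.6 CPM in the monocytes (log2 fold change -5.20 ± 0.26, adjusted p = 1.39e-13). These beta chains thus differed in opposite directions, and their alpha chain Itgav was higher in R2 (0.82 ± 0.14).

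Fc receptors bind antibody-coated targets. Of 7 tested, 6 were higher in R2 and 1 lower, with a median log2 fold change of 1.29. Fcgr4 measured 195, 188 and 141 CPM in R2, against 21.99, 24.98 and 41.7 CPM in the monocytes (log2 fold change 2.55 ± 0.29, adjusted p = 5.08e-07). The neonatal receptor Fcgrt, which recycles antibody, measured 853, 778 and 829 CPM in R2, against 86.99, 102 and 65.8 CPM in the monocytes (log2 fold change 3.28 ± 0.15, adjusted p = 1.53e-14). The inhibitory receptor Fcgr2b was also higher (1.17 ± 0.11). The shared signalling chain Fcer1g was the member lower in R2, at 754, 717 and 681 CPM in R2, against 913, 1450 and 825 CPM in the monocytes (log2 fold change -0.57 ± 0.15, adjusted p = 0.00183), and did not pass when the 6 libraries were fitted alone (adjusted p = 0.055).

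Iron and haem genes were higher in R2 for 12 of 21 tested and lower for 3, with a median log2 fold change of 0.75. The iron exporter ferroportin, Slc40a1, measured 238, 197 and 249 CPM in R2, against 8.94, 24.1 and 11.3 CPM in the monocytes (log2 fold change 3.96 ± 0.35, adjusted p = 2.43e-08). The transferrin receptor Tfrc measured 9.31, 11.7 and 22.7 CPM in R2, against 2.57, 1.91 and 2.47 CPM in the monocytes (log2 fold change 2.65 ± 0.43, adjusted p = 2.24e-05). The haem exporter Flvcr1 was lower, at 40.8, 49.02 and 44.8 CPM in R2, against 159, 126 and 156 CPM in the monocytes (log2 fold change -1.71 ± 0.12, adjusted p = 3.51e-11), as was the haem-degrading enzyme Hmox1 (-0.49 ± 0.11).

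Lysosomal genes were split. Of 34 tested, 18 were higher, 6 lower and 10 passed in neither direction, with a median log2 fold change of 0.39. The protease cathepsin F, Ctsf, measured 159.7, 159 and 152 CPM in R2, against 3.09, 3.75 and 2.80 CPM in the monocytes (log2 fold change 5.62 ± 0.14, adjusted p = 4.18e-19). The membrane protein Cd63 measured 148, 161 and 161 CPM in R2, against 0.964, 1.30 and 0.785 CPM in the monocytes (log2 fold change 7.28 ± 0.22, adjusted p = 1.62e-17). Both were nearly absent from the monocytes. The saposin precursor Psap measured 8444, 8397 and 7585 CPM in R2, against 15360, 14200 and 17000 CPM in the monocytes (log2 fold change -0.93 ± 0.09, adjusted p = 4.06e-09), and the cholesterol carrier Npc2 measured 946, 904 and 889 CPM in R2, against 2099, 2875 and 1870 CPM in the monocytes (log2 fold change -1.32 ± 0.12, adjusted p = 1.37e-09). Both were lower in R2. Atp6v0d2, a proton pump subunit, had no count in the monocytes and measured 8.95, 5.63 and 8.64 CPM in R2, at least 126-fold higher.

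Chemokine ligands were higher in R2 for 14 of 24 tested and lower for 6, with a median log2 fold change of 2.32. Cxcl16, a membrane-bound ligand for Cxcr6, measured 546, 630.1 and 543 CPM in R2, against 14.4, 16.2 and 18.8 CPM in the monocytes (log2 fold change 5.12 ± 0.12, adjusted p = 2.16e-19). Ccl7, a ligand of Ccr2, measured 22.6, 22.97 and 20.6 CPM in R2, against 0.129, 0 and 0.168 CPM in the monocytes (log2 fold change 7.63 ± 0.4997, adjusted p = 9.53e-13). Ccl2, the best-known ligand of Ccr2, measured 28.6, 25.8 and 27.5 CPM in R2, against 13.9, 7.99 and 7.34 CPM in the monocytes (log2 fold change 1.49 ± 0.23, adjusted p = 8.36e-06). R2 thus held more transcripts for ligands of the receptor it was sorted to lack. The platelet factor gene Pf4 measured 579, 567 and 577 CPM in R2, against 2.77, 0.614 and 0.224 CPM in the monocytes (log2 fold change 8.93 ± 0.34, adjusted p = 1.11e-14), and its log2 fold change was 10.43 without monocyte replicate 1. Ligands lower in R2 included the interferon-induced Cxcl10, at 9.44, 9.55 and 9.21 CPM in R2, against 76.4, 63.1 and 43.04 CPM in the monocytes (log2 fold change -2.69 ± 0.29, adjusted p = 1.2e-07), and Ccl6 and Ccl9, with log2 fold changes of -1.03 ± 0.14 and -1.17 ± 0.13.

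Among 13 tested chemokine receptors, 5 were higher, 4 lower and 4 passed in neither direction, with a median log2 fold change of -0.66. Ccr1 measured 155, 149 and 128 CPM in R2, against 21.9, 29.8 and 39.3 CPM in the monocytes (log2 fold change 2.24 ± 0.24, adjusted p = 1.34e-07). Cxcr4, which holds leukocytes in bone marrow, measured 108, 96.8 and 85.05 CPM in R2, against 530, 308 and 324 CPM in the monocytes (log2 fold change -2.002 ± 0.19, adjusted p = 1.45e-08). Ccr1 and Cx3cr1 were thus among the receptors higher in R2, and Cxcr4 among those lower. Ccr2 is counted among the 4 lower as well, but describes the gate.

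Adhesion molecules changed in both directions, with 9 of 24 tested higher in R2, 14 lower and a median log2 fold change of -1.10. Itgb7 measured 10.2, 9.16 and 7.62 CPM in R2, against 847, 711 and 858 CPM in the monocytes (log2 fold change -6.49 ± 0.47, adjusted p = 2.34e-09), and Itga4, its partner, measured 320.1, 321 and 299.9 CPM in R2, against 1620, 866 and 1903 CPM in the monocytes (log2 fold change -2.22 ± 0.23, adjusted p = 6.9e-08). The hyaluronan receptor Cd44 had a log2 fold change of -2.10 ± 0.18, the selectin ligand Selplg of -1.40 ± 0.11 and the beta-2 chain Itgb2 of -1.41 ± 0.10. Another integrin chain of leukocytes, Itgax, was higher in R2 (1.18 ± 0.24). So was Itga9, which measured 408, 398 and 358 CPM in R2, against 1.41, 1.84 and 0.841 CPM in the monocytes (log2 fold change 8.17 ± 0.19, adjusted p = 1.37e-19). The laminin-binding chain Itga6 measured 238, 229 and 225 CPM in R2, against 3.41, 1.77 and 2.13 CPM in the monocytes (log2 fold change 6.56 ± 0.19, adjusted p = 7.86e-18). Cadm1 measured 209, 226 and 217 CPM in R2, against 0.579, 0.887 and 0.168 CPM in the monocytes (log2 fold change 8.68 ± 0.21, adjusted p = 2.47e-19). The monocytes held at most 3.41 CPM of Itga9, Itga6 and Cadm1.

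Of 33 lineage transcription factors tested, 13 were higher, 11 lower and 9 passed in neither direction, with a median log2 fold change of -0.05. Maf, a regulator of tissue macrophages, measured 759, 765 and 813 CPM in R2, against 49.96, 18.4 and 72.1 CPM in the monocytes (log2 fold change 4.05 ± 0.29, adjusted p = 6.54e-10). Mef2c was also higher (2.11 ± 0.13), and so was Myc, at 33.9, 44.6 and 26.9 CPM in R2, against 4.37, 3.55 and 2.63 CPM in the monocytes (log2 fold change 3.32 ± 0.32, adjusted p = 1.59e-08). Cebpb, needed for monocyte survival, measured 125, 100.4 and 117 CPM in R2, against 2130, 712 and 1005 CPM in the monocytes (log2 fold change -3.49 ± 0.30, adjusted p = 1.22e-08). Klf4 had a log2 fold change of -2.83 ± 0.25, Klf2 of -1.83 ± 0.15 and Irf5 of -1.44 ± 0.09. Spi1, the PU.1 factor on which both cell types depend, measured 482, 471 and 447 CPM in R2, against 716, 727 and 703 CPM in the monocytes (log2 fold change -0.62 ± 0.08, adjusted p = 1.06e-06).

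Immediate early genes, which are switched on within minutes of a stimulus, were mostly lower in R2. Of 25 tested, 3 were higher, 16 lower and 6 passed in neither direction, with a median log2 fold change of -1.55. Fos measured 152, 89 and 258 CPM in R2, against 4222, 3507 and 3808 CPM in the monocytes (log2 fold change -4.53 ± 0.51, adjusted p = 1.13e-06). The phosphatase gene Dusp1 measured 117, 79.8 and 119 CPM in R2, against 2053, 1681 and 1829 CPM in the monocytes (log2 fold change -4.14 ± 0.26, adjusted p = 5.08e-11). Zfp36, which destabilises cytokine mRNAs, measured 152, 135 and 187 CPM in R2, against 3165, 1528 and 1907 CPM in the monocytes (log2 fold change -3.80 ± 0.27, adjusted p = 6.53e-10). No monocyte library overlapped an R2 library for these genes. Egr2 ran against the group, at 14.4, 27.4 and 15.9 CPM in R2, against 2.19, 1.09 and 1.34 CPM in the monocytes (log2 fold change 3.62 ± 0.31, adjusted p = 8.73e-10), and Egr3 had a log2 fold change of 4.87 ± 0.59. Egr1 measured 16.1, 26.3 and 58.2 CPM in R2, against 26.2, 9.55 and 24.8 CPM in the monocytes, with overlap (adjusted p = 0.339).

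Cytokine and inflammasome genes were lower in R2 for 15 of 22 tested and higher for 3, with a median log2 fold change of -1.06. Without monocyte replicate 2, 1 was higher and 16 were lower, and 1 was higher without R2 replicate 1 or R2 replicate 3. Osm, oncostatin M, measured 7.72, 5.63 and 6.92 CPM in R2, against 278, 84.6 and 121 CPM in the monocytes (log2 fold change -4.56 ± 0.36, adjusted p = 2.08e-09), and its log2 fold change was -3.94 without monocyte replicate 1. The interleukin 1 antagonist Il1rn measured 8.72, 7.11 and 6.43 CPM in R2, against 40.6, 39.1 and 45.6 CPM in the monocytes (log2 fold change -2.49 ± 0.18, adjusted p = 7.88e-11). Pycard, the adaptor of inflammasomes, measured 45.2, 48.3 and 47.9 CPM in R2, against 130.2, 212 and 119.5 CPM in the monocytes (log2 fold change -1.70 ± 0.16, adjusted p = 3.71e-09). Casp4 had a log2 fold change of -2.23 ± 0.19, and Tgfb1 of -1.29 ± 0.11. Il1b measured 164, 80.1 and 130.5 CPM in R2, against 466, 139.9 and 144 CPM in the monocytes, and its call (log2 fold change -1 ± 0.42, adjusted p = 0.0465) was lost without monocyte replicate 1 (-0.22, adjusted p = 0.562), without R2 replicate 2 (-0.78, adjusted p = 0.149) and without R2 replicate 3 (-1.03, adjusted p = 0.0853). Tnf measured 4.16, 4.55 and 6.26 CPM in R2, against 4.44, 3.07 and 2.30 CPM in the monocytes, with overlap (adjusted p = 0.0691, and 0.0337 without monocyte replicate 1).

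Genes induced by type I interferon were lower in R2 or did not pass: of 25 tested, none was higher and 17 were lower, with a median log2 fold change of -1.09. Without monocyte replicate 3, 1 was higher. Ifitm3, which blocks virus entry, measured 403, 252 and 266 CPM in R2, against 1590, 1792 and 1413 CPM in the monocytes (log2 fold change -2.38 ± 0.15, adjusted p = 7.67e-12). The nucleic acid sensor Zbp1 measured 49.7, 31.96 and 28.6 CPM in R2, against 179, 150.5 and 156 CPM in the monocytes (log2 fold change -2.14 ± 0.24, adjusted p = 1.81e-07). R2 replicate 1 was the highest R2 library for both but stayed below the monocytes.

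Pattern recognition receptors were split, with 7 of 26 tested higher, 12 lower and a median log2 fold change of -0.12. Clec4n, which encodes Dectin-2, a receptor for fungal mannans, measured 153, 131 and 140.3 CPM in R2, against 15.8, 25.1 and 13.7 CPM in the monocytes (log2 fold change 2.97 ± 0.16, adjusted p = 5.37e-13). Clec7a, which encodes Dectin-1, a receptor for fungal beta-glucans, measured 767, 694 and 757 CPM in R2, against 1041, 1222 and 809 CPM in the monocytes (log2 fold change -0.47 ± 0.12, adjusted p = 0.00204), and its call was lost in the fit of the 6 libraries with the replicate block (adjusted p = 0.0716). Of the related lectins on the list, Clec4e, described above, and Clec4d (-3 ± 0.32) were lower in R2. Tlr3, a sensor of double-stranded RNA, was higher (3.04 ± 0.26). The adaptor Myd88 and the peptidoglycan sensor Nod1 were lower, with log2 fold changes of -1.53 ± 0.11 and -2.11 ± 0.18.

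Growth factors and their receptors were higher in R2 for 12 of 21 tested and lower for 2, with a median log2 fold change of 1.70. Pdgfb, a growth factor for pericytes and smooth muscle, measured 240.1, 295 and 236 CPM in R2, against 40.8, 30.9 and 36.04 CPM in the monocytes (log2 fold change 2.84 ± 0.14, adjusted p = 8.91e-14). Pdgfc measured 26.9, 27.6 and 29.1 CPM in R2, against 0.643, 0.887 and 0.112 CPM in the monocytes (log2 fold change 5.72 ± 0.39, adjusted p = 1.89e-11). Bmp2, a bone morphogenetic protein, measured 24.8, 23.8 and 29.7 CPM in R2, against 0.0643, 0.0683 and 0.0561 CPM in the monocytes. That is an R2 to monocyte ratio of 421 (95% counting interval 144 to 2040). The matricellular gene Ccn1 had no count in the monocytes and measured 22.9, 16.5 and 12.5 CPM in R2, at least 277-fold higher. The vascular factors split: Vegfb measured 23.9, 19.7 and 21.8 CPM in R2, against 1.22, 1.64 and 0.841 CPM in the monocytes (log2 fold change 4.17 ± 0.25, adjusted p = 2.53e-12), whereas Vegfa measured 0.361, 0.0569 and 0.0441 CPM in R2, against 28.6, 3.89 and 6.11 CPM in the monocytes (log2 fold change -6.26 ± 0.96, adjusted p = 5.55e-06). Vegfa was uneven on both sides, and its log2 fold change was -7.81 without R2 replicate 1 and -4.95 without monocyte replicate 1.

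Matrix proteins, proteases and inhibitors were higher in R2 for 13 of 28 tested and lower for 11, with a median log2 fold change of 0.81. Beside Mmp13, the elastase Mmp12 measured 48.4, 65.3 and 57.2 CPM in R2, against 1.16, 1.501 and 0.280 CPM in the monocytes (log2 fold change 5.91 ± 0.40, adjusted p = 1.34e-10). The membrane-bound protease Mmp14 measured 29.4, 24.1 and 29.7 CPM in R2, against 3.34, 2.87 and 6.95 CPM in the monocytes (log2 fold change 2.63 ± 0.22, adjusted p = 5.79e-10), and the inhibitor Timp2 measured 1223, 1374 and 1267 CPM in R2, against 115, 118 and 101 CPM in the monocytes (log2 fold change 3.53 ± 0.12, adjusted p = 8.1e-17). R2 therefore differed from monocytes in which collagenase it held, Mmp13 in R2 and Mmp8 in the monocytes. The urokinase system split likewise. Plau, the protease, measured 136, 155 and 146 CPM in R2, against 10.7, 18.97 and 14.96 CPM in the monocytes (log2 fold change 3.29 ± 0.18, adjusted p = 3.3e-13), and Plaur, its receptor, measured 6.55, 6.71 and 7.93 CPM in R2, against 282, 191 and 177 CPM in the monocytes (log2 fold change -4.93 ± 0.26, adjusted p = 9.56e-13). Lgals3, galectin 3, measured 77.7, 88.3 and 75.3 CPM in R2, against 1428, 1979 and 1234 CPM in the monocytes (log2 fold change -4.27 ± 0.16, adjusted p = 5.93e-16).

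The S100 genes encode small calcium-binding proteins. Of 9 tested, 1 was higher in R2, 7 lower and 1 passed in neither direction, with a median log2 fold change of -3.03. S100a4 measured 16.9, 23.7 and 20.7 CPM in R2, against 1044, 2764 and 1036 CPM in the monocytes (log2 fold change -6.31 ± 0.41, adjusted p = 5.18e-10), and its log2 fold change was -5.67 without monocyte replicate 2. S100a6 measured 14.6, 16.9 and 14.2 CPM in R2, against 708, 1371 and 655 CPM in the monocytes (log2 fold change -5.91 ± 0.28, adjusted p = 7.01e-13), S100a10 had a log2 fold change of -2.69 ± 0.19 and S100a11 of -3.03 ± 0.18. S100a8, which is dominant in neutrophils, measured 0.136, 0.114 and 0.132 CPM in R2, against 2.89, 11.4 and 23.3 CPM in the monocytes (log2 fold change -6.56 ± 0.69, adjusted p = 6.36e-10), and -5.75 without monocyte replicate 3. The member called higher, S100a16, was under 1 CPM in every library (adjusted p = 0.0491), and its call was lost without any library but monocyte replicate 2 (adjusted p = 0.072 to 0.151). Promoters are known for 12 of the 13 S100 genes on the list, and 5 of those 12 hold the TATA box letters TATAAA on either strand, against 13.6% of all promoters and 7.44% of those of tested genes. The 5 include S100a3 and S100g, which had too few counts to be tested. S100a3 has 4 promoters, so a count of genes and a share of promoters are unlike measures. The promoters of S100a4 and S100a8 are printed with these letters in capitals because both genes were among the lowest in R2 and both hold the box near its usual place, 31 and 30 bases before the start. S100a6, also low in R2, lacks the letters, and in S100a9 they begin 0 bases before the start. The 2 printed promoters lie on the plus strand of chromosome 3, S100a4 at chr3:90603520-90603819 and S100a8 at chr3:90668821-90669120 (RefSeq, GRCm38.p6).
S100a4: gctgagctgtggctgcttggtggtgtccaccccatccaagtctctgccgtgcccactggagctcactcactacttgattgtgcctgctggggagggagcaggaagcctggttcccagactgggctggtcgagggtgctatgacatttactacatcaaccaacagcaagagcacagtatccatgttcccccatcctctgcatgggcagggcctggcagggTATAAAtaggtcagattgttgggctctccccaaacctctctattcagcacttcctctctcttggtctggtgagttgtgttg
S100a8: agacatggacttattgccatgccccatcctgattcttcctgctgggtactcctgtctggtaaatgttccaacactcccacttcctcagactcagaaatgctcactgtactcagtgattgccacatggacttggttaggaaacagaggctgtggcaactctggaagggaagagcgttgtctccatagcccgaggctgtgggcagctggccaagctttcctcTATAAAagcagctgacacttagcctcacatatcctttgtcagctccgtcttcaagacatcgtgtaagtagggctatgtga

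Genes of cell division and DNA replication were higher in R2 for 13 of 25 tested, lower for 2 and passed in neither direction for 10, with a median log2 fold change of 1.40. Without monocyte replicate 2, 1 was lower, as without monocyte replicate 3. Ccnd1, cyclin D1, which carries cells out of rest, measured 405, 377 and 334 CPM in R2, against 4.50, 4.64 and 4.65 CPM in the monocytes (log2 fold change 6.33 ± 0.20, adjusted p = 1.62e-17). Its relative Ccnd3 measured 50.01, 45.9 and 43.9 CPM in R2, against 406, 375 and 392.1 CPM in the monocytes (log2 fold change -3.07 ± 0.13, adjusted p = 6.2e-15). The D cyclins thus differed in opposite directions. Mcm6, a subunit of the replicative helicase, measured 87.7, 80.9 and 84.4 CPM in R2, against 12.6, 18.3 and 17.04 CPM in the monocytes (log2 fold change 2.40 ± 0.14, adjusted p = 1.54e-12), and Mcm2 had a log2 fold change of 2.24 ± 0.19. Mki67, the usual proliferation marker, was uneven within both groups, at 29.6, 18.2 and 50.9 CPM in R2, against 7.84, 2.80 and 25.9 CPM in the monocytes, and the groups overlapped (adjusted p = 0.102). Without monocyte replicate 3, the highest of its group, Mki67 was higher in R2 (2.60, adjusted p = 0.0206).

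Glycolytic genes were lower in R2 for 15 of 20 tested and higher for 5, with a median log2 fold change of -0.96. Pkm, pyruvate kinase, measured 303, 285 and 279 CPM in R2, against 1150, 1215 and 1109 CPM in the monocytes (log2 fold change -2.004 ± 0.09, adjusted p = 5.34e-15). Aldoa, an aldolase, measured 296, 279.8 and 285 CPM in R2, against 609, 819 and 600.2 CPM in the monocytes (log2 fold change -1.24 ± 0.10, adjusted p = 3.65e-10). The lactate exporter Slc16a3 had a log2 fold change of -2.13 ± 0.18. The glucose transporter Slc2a3 was higher, at 30.3, 28.5 and 33.2 CPM in R2, against 4.57, 4.03 and 4.76 CPM in the monocytes (log2 fold change 2.78 ± 0.19, adjusted p = 1.7e-11). Gapdh and Pgk1 have many near-identical copies and were counted at a few CPM in every library, so how their reads were shared is uncertain. Both are among the 15 genes lower in R2.

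Of 27 genes of lipid and cholesterol handling tested, 10 were higher, 14 lower and 3 passed in neither direction, with a median log2 fold change of -0.50. Apoe, the apolipoprotein that loads cholesterol, measured 23130, 24570 and 25200 CPM in R2, against 2666, 3882 and 2301 CPM in the monocytes (log2 fold change 3.04 ± 0.19, adjusted p = 1.23e-11). Apoc2 measured 2.17, 1.08 and 1.59 CPM in R2, against 49.1, 119.6 and 69.3 CPM in the monocytes (log2 fold change -5.58 ± 0.53, adjusted p = 4.6e-08). Alox5, which begins leukotriene synthesis, measured 218, 202 and 221 CPM in R2, against 31.5, 24.3 and 18.8 CPM in the monocytes (log2 fold change 3.11 ± 0.15, adjusted p = 2.69e-14), while its partner Alox5ap was lower (-1.46 ± 0.14). The lipoprotein receptor Scarb1 measured 83.8, 88.5 and 76.2 CPM in R2, against 538, 642 and 535 CPM in the monocytes (log2 fold change -2.79 ± 0.12, adjusted p = 3.95e-15).

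Genes used as signs of alternative activation were higher in R2 for 10 of 18 tested and lower for 5, with a median log2 fold change of 1.26. The lectin Mgl2 measured 1182, 1273 and 1144 CPM in R2, against 2.57, 3.28 and 0.448 CPM in the monocytes (log2 fold change 9.21 ± 0.35, adjusted p = 3.33e-14). Retnla measured 81.8, 84.3 and 177 CPM in R2, against 0.579, 0.546 and 0.280 CPM in the monocytes (log2 fold change 7.94 ± 0.63, adjusted p = 6.34e-09). Chil3, in the same list, was among the lowest genes in R2, and Arg1 had no count in any R2 library and 0.129, 0.205 and 0.168 CPM in the monocytes.

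**Figure D4:**
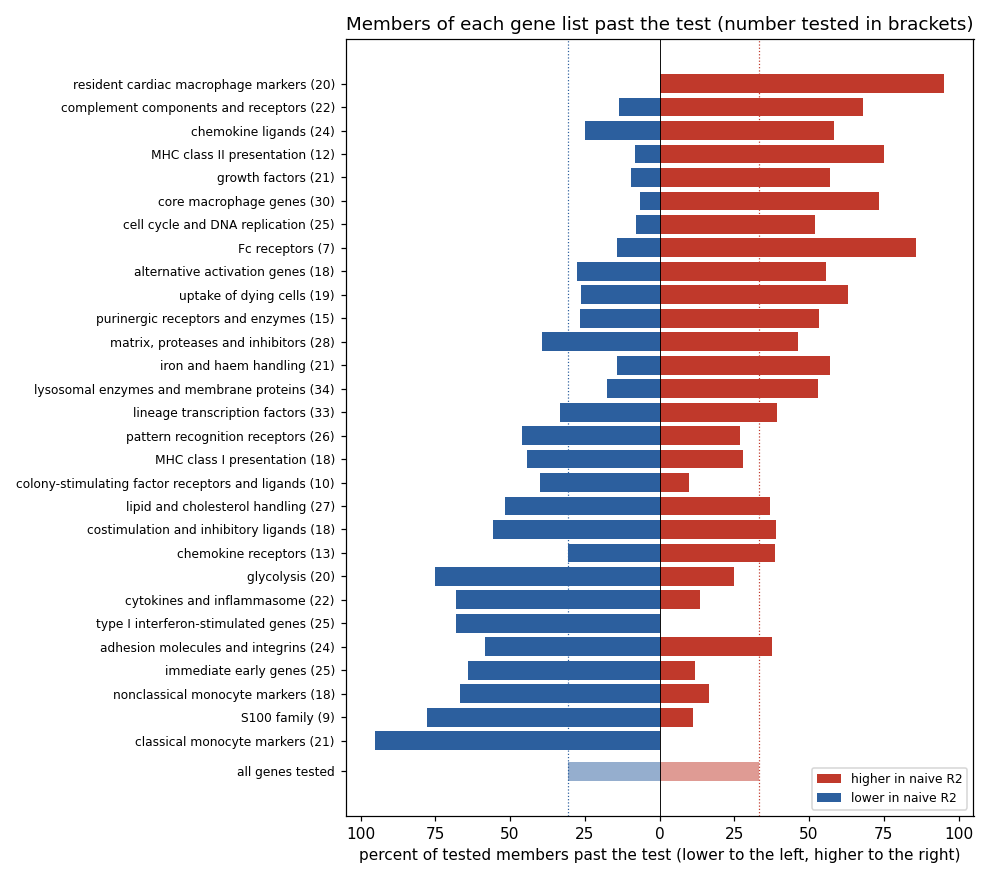
Percent of the tested members of each gene list that were higher or lower in R2 than in monocytes (adjusted p under 0.05), with dotted lines at the 33.1% and 30.5% of all tested genes. Resident macrophage and classical monocyte markers lie furthest from the dotted lines, and lists such as transcription factors lie near them on both sides.

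Transcripts that mark other cell types were read in the same libraries. Of 19 cardiomyocyte markers tested, 17 were higher in R2 and none lower, with a summed level of 158.5 to 211.2 CPM in R2 and 0.785 to 1.54 CPM in the monocytes, where 8 had no count. Mb, myoglobin, measured 44.7, 31.4 and 39.9 CPM in R2, against 0.0643, 0.137 and 0.0561 CPM in the monocytes. Naive R1, sorted from the same organ, averaged 16.97 ± 1.60 CPM and R3 37.2 ± 0.306 CPM (SD, n = 3). Fibroblast markers summed to 12.6 to 17.6 CPM in R2 and 0.514 to 1.37 CPM in the monocytes. Endothelial markers summed to 117.1 to 125.6 CPM in R2 and 98.5 to 167.2 CPM in the monocytes. Of 11 tested, 5 were higher in R2, 2 lower and 4 passed in neither direction. Most of the R2 level was Eng, which measured 99.6, 103 and 100.3 CPM in R2, against 27.5, 23.1 and 30.04 CPM in the monocytes and is also expressed by macrophages. Most of the monocyte level was Flt1, a receptor for vascular growth factors, which measured 1.90, 1.25 and 1.01 CPM in R2, against 126, 59.99 and 85.1 CPM in the monocytes (log2 fold change -6.01 ± 0.28, adjusted p = 3.52e-14). Cdh5 measured 2.30, 2.39 and 1.76 CPM in R2, against 0.643, 1.23 and 0.841 CPM in the monocytes (adjusted p = 0.0628). Smooth muscle and pericyte markers summed to 26.9 to 40.01 CPM in R2 and 19.1 to 23.2 CPM in the monocytes. The parts of heart muscle and connective tissue RNA in the differences above were not tested. Col14a1, at 577, 508 and 494 CPM in R2, was above the summed level of the fibroblast list in every R2 library. It is not on that list, and the part of fibroblasts in its level was not tested.

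Neutrophil markers summed to 59.8 to 66.3 CPM in R2 and 620.8 to 796.2 CPM in the monocytes, with 9 of 11 lower in R2 and none higher. Csf3r and Mmp8 made up most of this. The granule genes Ngp and Ltf had no count in R2, against 1.03, 4.98 and 29.8 CPM for Ngp and 0.193, 2.87 and 16.4 CPM for Ltf in the monocytes. The part of neutrophils in Mmp8, Cd177 and S100a8 was not tested. Conventional dendritic cell markers summed to 108.2 to 114.6 CPM in R2 and 240.6 to 490.0 CPM in the monocytes, with 4 of 12 higher in R2 and 4 lower. The higher members were Mycl, Zbtb46, Clec9a and Kmo, with log2 fold changes of 3.93, 2.60, 1.11 and 0.97. The lower members were Btla, Dpp4, Flt3 and Cd209a, with log2 fold changes of -6.71, -5.58, -4.48 and -4.12. The monocyte range came largely from Cd209a, which measured 5.78, 5.97 and 7.71 CPM in R2, against 82.3, 221 and 37.2 CPM in the monocytes, highest in monocyte replicate 2, the library that was also highest for H2-Aa and H2-Eb1. Flt3, a receptor of dendritic cells and their precursors, measured 3.57, 2.50 and 2.64 CPM in R2, against 74.97, 71.7 and 49.99 CPM in the monocytes (log2 fold change -4.48 ± 0.46, adjusted p = 1.16e-07). Markers of red pulp macrophages, the resident macrophages of the spleen, split as 3 higher and 3 lower of 7 and summed to 3785 to 4424 CPM in R2 and 1011 to 1167 CPM in the monocytes, mostly Adgre1 and Axl. Cd5l measured 0.361, 0 and 0.352 CPM in R2, against 2.44, 5.19 and 2.07 CPM in the monocytes. B cell, T cell and NK cell markers summed to at most 50.7, 6.48 and 3.48 CPM in R2 and 38.1, 7.17 and 10.9 CPM in the monocytes. Of 4 plasmacytoid dendritic cell markers tested, 3 were higher in R2 and none lower. Their log2 fold changes were 8.51 for Cox6a2, 6.42 for Siglech and 1.34 for Tcf4. The list summed to 186.6 to 199.8 CPM in R2 and 53.5 to 72.8 CPM in the monocytes, most of it Tcf4, which macrophages also express. The part of plasmacytoid dendritic cells in these levels was not tested. Most of the B cell sum was Cd79b, at 33.8, 35.4 and 33.1 CPM in R2, against 21.6, 33.8 and 17.1 CPM in the monocytes (adjusted p = 0.0535, and 0.00194 without monocyte replicate 2). Erythroid genes were highest in monocyte replicate 2, with Hba-a1 at 0, 0.853 and 0.176 CPM in R2, against 2.44, 22.6 and 9.02 CPM in the monocytes. The erythropoietin receptor Epor, on the same list, was in contrast found in R2, at 48.4, 53 and 46.5 CPM in R2, against 0.257, 0.205 and 0.0561 CPM in the monocytes (log2 fold change 8.15 ± 0.36, adjusted p = 6.59e-16).

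**Figure D5:**
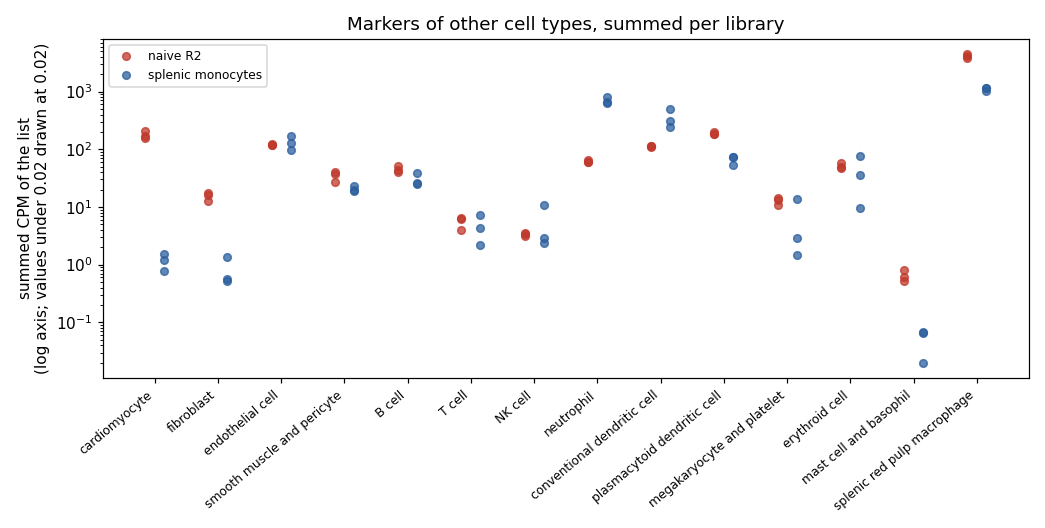
Summed CPM on a log axis of the markers of each other cell type in every R2 and monocyte library. Cardiomyocyte and fibroblast markers are higher in all R2 libraries, and neutrophil markers in all monocyte libraries.

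Levels can be compared between genes once divided by transcript length. On this scale (TPM, scaled to library size and transcript length), the most abundant transcripts of R2 were Cd74, with a mean of 50650 TPM in R2 and 2866 TPM in the monocytes, Apoe (41100 and 4317 TPM) and H2-Aa (28880 and 1005 TPM). Lyz2, which encodes lysozyme, had 23780 TPM in R2 and 80630 TPM in the monocytes, where it led all genes. Selenop, a selenium carrier, had 10920 TPM in R2 and 1037 TPM in the monocytes. C1qa had 10690 TPM in R2 and 18.5 TPM in the monocytes, and C1qc 10010 and 19.6 TPM. The 10 most abundant transcripts of R2 also included H2-Ab1, H2-Eb1 and the protease inhibitor Cst3 (9886 TPM in R2 and 4458 TPM in the monocytes). In the monocytes, Psap followed Lyz2, with 6299 TPM in R2 and 10790 TPM in the monocytes, and then Plac8, with 7.05 and 9411 TPM. S100a4 had 86.5 TPM in R2 and 5721 TPM in the monocytes. B2m (7450 TPM in R2 and 8296 TPM in the monocytes), Actb (5061 and 6072 TPM) and Tyrobp (2148 and 4621 TPM), which encodes a signalling adaptor, were abundant on both sides. Mir682, listed at 8771 TPM in the monocytes, is a very short model that other transcripts can overlap and is not read as a miRNA level.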

How the data were processed

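Libraries were made with Illumina's TruSeq kit from RNA of freshly sorted cells, per the labels. The deposited table holds whole-number counts per gene for 27179 gene IDs, 25275 with a symbol, in 21 libraries; per the submitters' processing notes, the authors counted with featureCounts on mm10. The aligner, the annotation, the strand setting and all versions stay unnamed in the labels (not given in the sources used here), so overlapping and antisense genes cannot be separated. The deposited gene length, another unit, was used for TPM values. The 1904 IDs without a symbol were tested but not named.

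All 21 libraries were fitted with edgeR 4.0.16 (R 4.3.3): filterByExpr (minimum count 10, total 15), TMM scaling, robust quasi-likelihood test of R2 minus monocytes with 1 mean for each of 7 groups, Benjamini-Hochberg adjusted p under 0.05, two-sided. Errors are SE for fold changes and SD for means. Named genes were 5 fixed ones, the 12 largest changes each way with at least 32 CPM and no overlap, the 10 most abundant per group, and members of 43 lists; some genes so chosen are not reported here. Members and lists were chosen with earlier results of these data known. On simulated counts for this comparison (13275 genes, 100 changed at each fold), 75% of 2-fold and 98% of 4-fold changes were recovered. Depth, 12800136 to 23006155 counts, limits genes of few counts; intervals cover counting error only, and reads are not independent molecules. DESeq2 1.42.0, limma 3.58.1, other scalings, filters and left-out libraries were tried. Positions and promoters are RefSeq's for GRCm38.p6.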

Additional observations from a re-analysis of the deposited data

How the results depend on the processing

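The count of genes past the test stayed within 1.5 times of 8440 under every alternative tried, and so did the counts higher and lower. Leaving out each library in turn gave 7767 to 8153 genes, 3943 to 4167 higher and 3708 to 4086 lower, and with the 2-fold limit 4437 to 4988, 2663 to 2793 higher and 1743 to 2276 lower. DESeq2 called 8585 genes, limma's voom with sample weights 8813, the older quasi-likelihood fit 8359, no filter 8223 of 18944 tested, a stricter filter 8034 of 12032, and a fit of the 6 libraries alone 7146 of 12235. The exception was edgeR's glmTreat, which tests against the 2-fold limit itself and called 1298 genes lower in R2, against 2053 by the 2-fold rule, and 2005 higher. Upper quartile scaling moved the median log2 fold change of all genes to 0.15 and total library size to 0.14, from 0.08, and the share of called genes that were higher to 56.4% and 55.6%, from 52.0%. The deviations of same-numbered R2 and monocyte libraries had correlations of -0.031, 0.071 and 0.082, against -0.093 to 0.051 for libraries of different numbers. All were under the limit of 0.1 set for pairing, and the main fit used no replicate block. With 3 libraries a group, these values cannot decide whether the numbers pair the pools. A fit with the replicate block on the 6 libraries called 6870 genes, 3625 higher and 3245 lower, and 4527 with the 2-fold limit. Of 207 named genes followed through the alternatives, 197 passed the test, and none changed direction in any alternative. Calls were lost in some alternatives for 6 of them (Actb, B2m, Clec7a, Fcer1g, Il1b and S100a16) and gained for 6 others (Arg1, Cd79b, Cdh5, Mki67, Ngp and Tnf), and the cause was not tested. Counts over lists moved by over 1.5 times only where few genes were counted. The fibroblast list had 4 genes higher, 2 without monocyte replicate 2 or 3 and 8 by DESeq2. With 3 pools a group, and genes at a few counts on the low side, a large fold can rest on few reads.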

Other observations

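Receptors and enzymes for extracellular nucleotides differed in both directions. Of 15 tested, 8 were higher, 4 lower and 3 passed in neither direction, with a median log2 fold change of 0.87. The ADP receptor P2ry12 measured 209.8, 203 and 205 CPM in R2, against 12.2, 14.9 and 13.96 CPM in the monocytes (log2 fold change 3.91 ± 0.11, adjusted p = 5.94e-18). Its neighbour P2ry13 measured 219, 209 and 220.1 CPM in R2, against 9.96, 12.2 and 13.7 CPM in the monocytes (log2 fold change 4.17 ± 0.14, adjusted p = 1.01e-16). The ATP-gated channel P2rx7 had a log2 fold change of 1.92 ± 0.12, and Entpd1, which encodes CD39 and breaks down ATP, measured 445, 479 and 422 CPM in R2, against 92.7, 92.1 and 80.9 CPM in the monocytes (log2 fold change 2.34 ± 0.10, adjusted p = 3.02e-15). P2ry1, another ADP receptor, measured 0.316, 0.114 and 0.264 CPM in R2, against 22.4, 22.9 and 20.9 CPM in the monocytes (log2 fold change -6.48 ± 0.39, adjusted p = 1.04e-12), and the adenosine receptor Adora2a measured 0.452, 0 and 0.441 CPM in R2, against 35.8, 27.4 and 39.1 CPM in the monocytes (log2 fold change -6.71 ± 0.38, adjusted p = 6.3e-13). The ADP receptors thus differed in both directions, with P2ry12 and P2ry13 higher in R2 and P2ry1 lower.

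Of 18 ligands and receptors that tune T cells or restrain macrophages, 7 were higher in R2, 10 lower and 1 did not pass, with a median log2 fold change of -0.62. Cd86, a costimulator of T cells, measured 403, 429 and 395 CPM in R2, against 45.5, 60.3 and 42.8 CPM in the monocytes (log2 fold change 3.05 ± 0.12, adjusted p = 1.37e-15), while Cd40 was lower (-1.19 ± 0.18). The inhibitory collagen receptor Lair1 measured 409.9, 389.9 and 393 CPM in R2, against 55.5, 55.1 and 78.97 CPM in the monocytes (log2 fold change 2.65 ± 0.12, adjusted p = 2.7e-14). Cd47, the signal that restrains uptake, measured 139.9, 135 and 141 CPM in R2, against 384, 456 and 347 CPM in the monocytes (log2 fold change -1.51 ± 0.11, adjusted p = 8.64e-11), and its receptor Sirpa measured 1579, 1656 and 1504 CPM in R2, against 1464, 1319 and 1606 CPM in the monocytes, with overlap (adjusted p = 0.258). Among 10 tested receptors and ligands of the colony-stimulating factors, Csf1r was the member higher in R2 and 4 were lower, with a median log2 fold change of -0.32. Csf3r measured 60.3, 57.8 and 63.4 CPM in R2, against 408, 309.8 and 429.8 CPM in the monocytes (log2 fold change -2.66 ± 0.12, adjusted p = 1.29e-14), and Csf2rb had a log2 fold change of -1.31 ± 0.14. Without monocyte replicate 3, 2 of these genes were higher.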
